A study of Mus musculus with 18 samples.

Results

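The 7 genes described here encode the Runx transcription factors and their partners: Runx1, Runx2, Runx3, Cbfb, Cbfa2t2, Cbfa2t3 and Runx1t1, out of 21887 protein-coding genes of the RefSeq table for GRCm38.p6 (the build also called mm10). The family was chosen by the listing of a Runx1 site with G9a inhibition in all 3 cell populations of the study. That choice used the comparison of inhibitor with vehicle, so the members' values are given as a description, with no test. Open chromatin was mapped by ATAC-seq, which uses a transposase to tag accessible DNA, in lung epithelial cells of adult C57BL/6 mice aged 6 to 12 weeks. Cells without CD31 and CD45 and with Epcam and Sca-1 were sorted by CD24 into CD24neg, CD24low and CD24high populations, 10000 cells per library, from 3 mice given a G9a inhibitor (G9ai) and 3 given vehicle. The sources used here do not name the compound, its dose or the length of treatment. All groups share strain, tissue and gate and carry no labelled allele. Whole sorted populations were profiled, so a site open in few cells and a site slightly open in many cannot be told apart.

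The peak lists used came from 10 libraries. Each population had 2 with the inhibitor (replicates 2 and 3). With vehicle, CD24low had 2 (replicates 2 and 3), while CD24neg and CD24high had 1 each (replicate 3). Of the 18 samples, 8 were not analysed here. The lists held 2552 to 12985 peaks and are subsets of the peaks called, by a rule that is not stated: the listed peaks made up 3.03% to 13.2% of the highest peak number in their library. Peaks of both arms met in 86 of 12957 regions in CD24neg, 18 of 9969 in CD24low and 105 of 15687 in CD24high. A site open in both arms may therefore be absent from the lists, and a gene with no peak in the lists may be open in every sample. Read depth is unknown. Within a population, a region with peaks in all G9ai libraries and none in a vehicle library was called G9ai-only, and the reverse was called vehicle-only. On the vehicle side of CD24neg and CD24high that rests on 1 library. A region was linked to a gene when it overlapped the gene span plus 1 kb on each side.

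Runx proteins bind DNA through the Runt domain, and Cbfb, which does not bind DNA itself, joins that domain and strengthens its hold. Runx1 is best known as a regulator of blood stem cells that is also active in many epithelia, Runx2 as the regulator of bone formation, and Runx3 for its roles in lymphocytes and sensory neurons. Cbfa2t2, Cbfa2t3 and Runx1t1 encode the ETO (MTG) corepressors, which recruit histone deacetylases to DNA-bound factors. Runx1t1 is named for its fusion to RUNX1 in acute myeloid leukaemia. G9a, the product of Ehmt2, is a methyltransferase of histone H3 lysine 9, a repressive mark.

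The promoter bases available for these genes are shown first, because 3 of the listed regions lay on or beside a start site. The RefSeq promoter table (GRCm38.p6, 250 bases before to 50 after a start site) held 9 windows for 6 of the 7 genes and none for Runx1t1. The longest stretch common to windows of the 3 Runx genes was 18 bases long and held the Runx recognition letters TGTGGT 2 times, on the opposite strand as ACCACA. Capitals mark TGTGGT or TGCGGT on either strand:
Runx1 distal promoter, chr16:92826025-92826054, minus strand: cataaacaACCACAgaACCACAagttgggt
Runx2 promoter, chr17:44814583-44814612, minus strand: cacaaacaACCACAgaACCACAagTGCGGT
Runx3 distal promoter, chr4:135120503-135120532, plus strand: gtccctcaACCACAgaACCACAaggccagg
In the set of 32817 promoter windows the 18 bases occurred in 4. These were the 3 shown and the window of the noncoding RNA Gm16225, which lies across the Runx3 window on the other strand. The common stretch began 26 bases after the Runx1 distal start site, 21 bases after that of Runx2 and 136 bases before that of Runx3. None of the 10 lists had a peak in the distal windows of Runx1 or Runx3.

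Windows of Runx2, Cbfa2t2 and Cbfa2t3 did overlap a listed peak, and the bases before the start site under those peaks differed in composition. The Runx2 bases lay under the joined inhibitor peaks of CD24low. Of these, the replicate 3 peak ended at 44814773, so the bases beyond it lay under the replicate 2 peak alone. The Cbfa2t2 bases were listed with the inhibitor in CD24low replicate 3, and the Cbfa2t3 bases with vehicle in CD24high:
Runx2, chr17:44814678-44814877, minus strand: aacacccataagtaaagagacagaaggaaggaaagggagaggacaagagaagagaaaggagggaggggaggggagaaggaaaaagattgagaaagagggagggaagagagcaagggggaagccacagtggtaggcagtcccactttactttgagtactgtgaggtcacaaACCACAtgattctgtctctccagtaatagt
Cbfa2t2, chr2:154436234-154436483, plus strand: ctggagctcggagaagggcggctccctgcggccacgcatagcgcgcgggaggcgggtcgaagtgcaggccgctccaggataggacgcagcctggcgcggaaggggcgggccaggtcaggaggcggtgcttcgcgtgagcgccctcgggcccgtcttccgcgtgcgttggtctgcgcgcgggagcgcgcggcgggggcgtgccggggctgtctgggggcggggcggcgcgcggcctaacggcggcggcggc
Cbfa2t3 proximal promoter, chr8:122678201-122678329, minus strand: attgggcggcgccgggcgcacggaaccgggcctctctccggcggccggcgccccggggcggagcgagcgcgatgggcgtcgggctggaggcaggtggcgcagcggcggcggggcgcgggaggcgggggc
The Runx2 stretch had a GC content of 48.0% and held 0 CG pairs. The Cbfa2t2 stretch had 78.4% GC with 41 CG pairs, and the Cbfa2t3 stretch 84.5% with 24. The median window in the table had 52.7% GC. In the Runx2 stretch 1 copy of ACCACA was present, 80 bases before the start site. The shared stretch with its paired copies lay 71 bases outside the listed Runx2 peaks. The letters TGTGGT on either strand occurred in 3 of the 9 member windows, namely the 3 above with the shared stretch, and in 16.8% of all windows. TGCGGT occurred in 2 of the 9, Runx2 and the distal window of Cbfa2t3, and in 6.45% of all. A match describes letters and is not evidence of binding.

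Of the 7 genes, 6 held at least 1 listed peak, and Runx1 held most of them. In all, 53 listed peaks lay in the 7 windows. They merged into 30 sites when the peaks of all 10 lists were joined, 15 of them in Runx1, 6 in Runx2, 4 in Cbfa2t3, 2 each in Cbfb and Cbfa2t2, and 1 in Runx3. Of these sites 28 lay inside the gene span, and 1, at the 5′ end of Runx2, also lay in the window of the neighbouring gene Supt3. The annotation used here gives no exons or introns, so a site is placed by its distance from a start site.

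**Figure D1:**
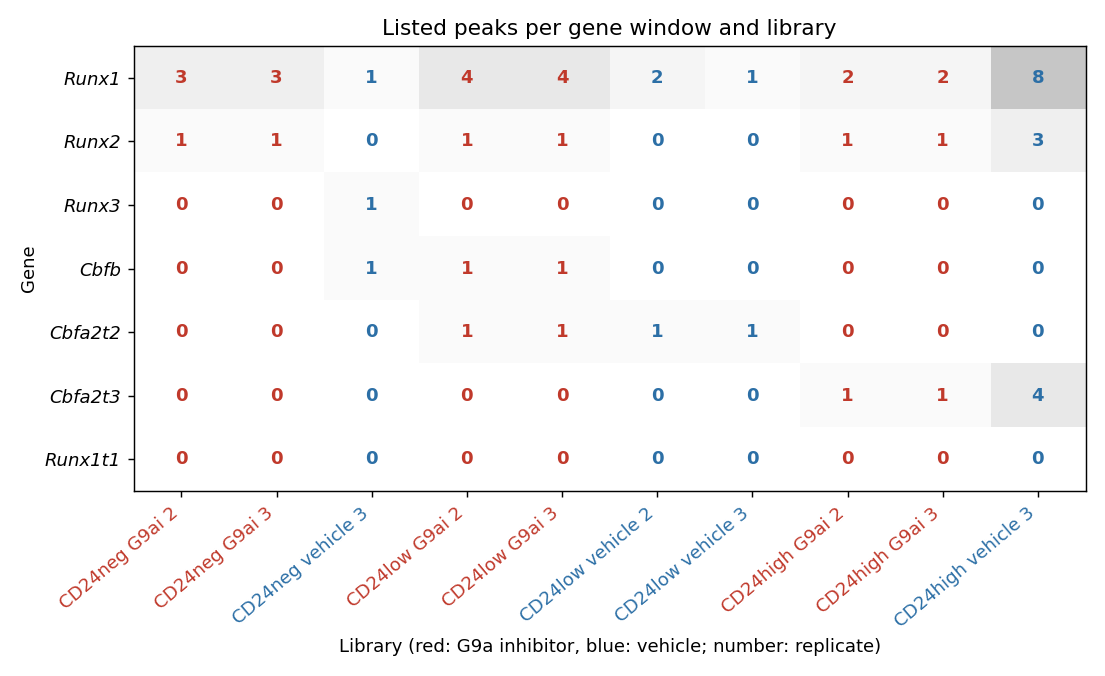
Number of listed peaks in each gene window (rows) for each of the 10 libraries (columns; red, G9ai; blue, vehicle; the last digit of a column name is the replicate). Runx1 has a peak in every library, from 1 to 8, and Runx1t1 has 0 in all 10.

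Most sites belonged to a single set. Of the 30 sites, 25 were listed in 1 population and arm, where 84.9% of the 21746 gene-linked sites of all genes were. None was listed in the same arm of just 2 populations (6.92% of gene-linked sites), and 1, in Runx1, in the same arm of all 3 (0.276%). By gene, the members were as follows. In CD24neg, 2 of 7 members held a G9ai-only region, against 10.6% of all protein-coding genes and 22.3% of genes whose span was between the shortest and the longest of the members. There 3 of 7 held a vehicle-only region, against 18.9% and 38.7%. In CD24low, 4 of 7 held a G9ai-only region (15.9% of all genes and 32.1% of genes in that length range) and 2 of 7 a vehicle-only region (7.44% and 14.5%). In CD24high, 2 of 7 held a G9ai-only region (8.01% and 16.2%) and 3 of 7 a vehicle-only region (25.0% and 48.7%). With 7 genes, shares of this size differ from the length-range background by 2 genes or fewer. Since the inhibitor contrast chose the family, nothing is read from them.

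Runx1 (gene ID 12394, chr16:92601466-92826074, minus strand, 224.6 kb) was the gene with regions of both arms in every population. Its 6 G9ai libraries held 3 and 3 peaks in CD24neg, 4 and 4 in CD24low, and 2 and 2 in CD24high. Its vehicle libraries held 1 in CD24neg, 2 and 1 in CD24low, and 8 in CD24high. As arm-only regions, these came to 3 with G9ai and 1 with vehicle in CD24neg, 4 and 1 in CD24low, and 2 and 8 in CD24high. G9ai listings were thus more numerous in CD24neg and CD24low and vehicle listings in CD24high, where the vehicle list was the longest of the 10. In CD24low the G9ai lists were also the longer ones, with 7379 and 7361 peaks against 2558 and 2552 with vehicle. In CD24neg the G9ai lists were the shorter ones, with 4173 and 4149 peaks against 8870. The part of list length in these counts was not tested. Summed over the 6 sets, with a site counted once in each set that lists it, Runx1 held 19 arm-only regions, a number reached by 46 of all 21887 genes, itself included. Of the 843 genes at least as long, 37 reached it (4.39%). Per 100 kb of window, Runx1 held 8.38 regions, against 2.41 over all genes and 1.83 over the other 6 members together. These Runx1 values include the site that chose the family, counted once in each population. The standing of Runx1 among genes is thus partly drawn from that choice, and nothing is read from it.

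**Figure D2:**
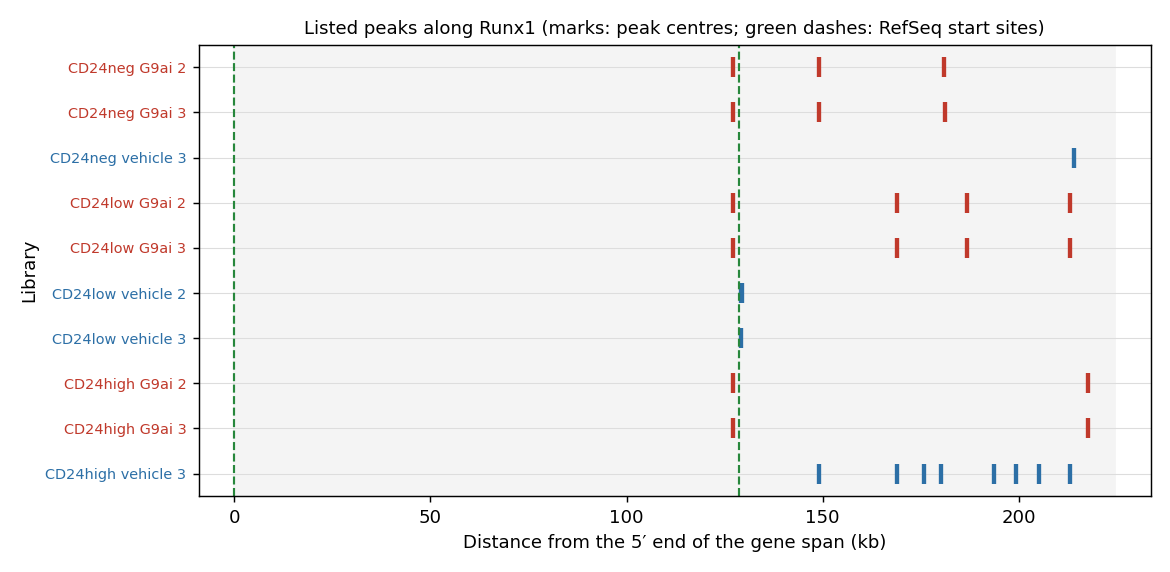
Listed peaks along Runx1 by library; the x axis is the distance in kb from the 5′ end of the gene span, the grey band is the span, marks are peak centres (red, G9ai; blue, vehicle) and green dashes are the distal and the proximal RefSeq start sites. The first 127.2 kb hold no listed peak in any of the 10 libraries, and the 6 G9ai libraries share a mark just before the proximal start site.

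The Runx1 sites were confined to one side of the gene in these 10 lists. RefSeq gives a distal and a proximal start site, 128.7 kb apart, whose transcripts encode Runx1 proteins with different amino termini. Of the 15 sites, 14 lay downstream of the proximal start site, in the 95.86 kb to the end of the gene. The remaining 1 lay just before it. From the distal start site onward, 127.2 kb, or 56.6% of the span, had no listed peak in any library. That interval can hold peaks listed in neither arm, which these files do not show.

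The site for which the family was taken up lay 1422 bp before the proximal Runx1 start site, at chr16:92698751-92698902. All 6 G9ai libraries had a peak there, 96 to 152 bp wide, and 85 bp (92698786 to 92698870) were common to the 6 peaks. With 3 mice per arm, these 6 libraries are not 6 separate animals. No vehicle library listed the site. Its score, ranked within each list, was moderate: the percentile was 57.2 and 67.8 in the CD24neg libraries, 15.4 and 29.9 in CD24low, and 27.6 and 55.0 in CD24high. The site was thus near the middle of the CD24neg lists and in the lower part of the CD24low lists. It is 1 of 21 regions in the genome that were G9ai-only in all 3 populations. Those of the 21 that lay in gene windows were linked to 19 genes, 0.0868% of all genes. The vehicle counterpart comprised 61 regions, of which those in gene windows were linked to 43 genes (0.196%), with 0 in the 7 members.

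On the other side of the proximal start site was the vehicle signal of CD24low. Both CD24low vehicle libraries had a peak at chr16:92696868-92696964, 365 bp after the start site, with score percentiles of 29.4 (replicate 2) and 44.8 (replicate 3). Replicate 2 had another at 92696718 to 92696801, 528 bp after it, at percentile 10.5. In CD24low, G9ai and vehicle peaks thus flanked the same start site without overlapping. All 3 vehicle peaks had scores below the median of their lists. The proximal promoter window itself (chr16:92697280-92697579), with a GC content of 69.0%, held no listed peak.

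Along the rest of Runx1, the peak ranked highest in its own list was one of vehicle in CD24high, at chr16:92632176-92632610, with a score at percentile 99.1 of its list. It lay 64719 bp after the proximal start site and was listed in no other library. The other 7 CD24high vehicle peaks had percentiles of 43.2 to 90.8. With the inhibitor, CD24high had 1 further site, at 92608280 to 92608383, at percentiles 58.2 and 40.2. CD24neg with the inhibitor had a wide site at 92644722 to 92645455, for which replicate 2 ranked at 88.1 and replicate 3 at 7.2. These 2 replicates listed the site together but ranked it far apart. A CD24low site at 92639199 to 92639321 behaved likewise, at 60.3 in replicate 2 and 7.2 in replicate 3. The single CD24neg vehicle peak, at 92611939 to 92612123, ranked at 37.1.

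At 3 Runx1 sites the arm depended on the population. The site at chr16:92612560-92613212, 84117 bp after the proximal start site, was listed with G9ai in CD24low, at score percentiles of 90.8 and 93.8, and with vehicle in CD24high, at 44.0. It was the Runx1 site ranked highest in both CD24low G9ai lists. The site at 92656800 to 92657200 was listed in the same way, at 89.7 and 49.3 with G9ai in CD24low and at 43.2 with vehicle in CD24high. The site at 92676857 to 92676997 was listed with G9ai in CD24neg, at 49 and 19.3, and with vehicle in CD24high, at 85.0. Among all gene-linked sites, 7.47% had opposite arms in different populations. Here that was 3 of 15 Runx1 sites and 0 of the 15 sites of the other members. The 3 sites share the 1 vehicle library of CD24high, and the difference in direction between populations was not tested.

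Runx2 (gene ID 12393, chr17:44495987-44814797, minus strand, 318.8 kb) held a G9ai region in every population, each at a different place. In CD24neg the region lay at 44767508 to 44767717, 46910 bp after the start site, with peaks at percentiles of 70.4 (replicate 2) and 11 (replicate 3). In CD24low it lay at 44814678 to 44814904, 51 bp before the start site, at 42.5 and 13.2. In CD24high it lay at 44709948 to 44710110, 104517 bp after the start site, at 38.3 and 11.5. Replicate 2 ranked above replicate 3 each time, and no replicate 3 peak exceeded percentile 13.2. The CD24low region is the one whose promoter bases are printed above.

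Vehicle peaks of Runx2 were found in CD24high, where 3 lay close together at 44734533 to 44738323. Their score percentiles were 24.2, 12.8 and 81.7, the last belonging to the peak at 44738029 to 44738323. Neither CD24low vehicle library and not the CD24neg vehicle library listed a Runx2 peak. With 6 arm-only regions Runx2 held 1.87 per 100 kb, near the 2.41 of all genes, and 175 of the 514 genes at least as long held as many.

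Runx3 (gene ID 12399, chr4:135120645-135177990, plus strand, 57.35 kb) had 1 listed peak in 10 libraries. It came from CD24neg vehicle replicate 3, at 135150563 to 135150666, 1879 bp before the proximal start site, at percentile 22.0. The nearest G9ai peaks outside the gene lay 25.8 kb to 262.2 kb from it. Cbfb (gene ID 12400, chr8:105170674-105217989, plus strand, 47.32 kb), which encodes the shared subunit, had 2 sites. With vehicle, CD24neg replicate 3 had a peak at 105170240 to 105170324, 350 bp before the start site, at percentile 37.1. With the inhibitor, both CD24low libraries had a peak within 105186581 to 105186859, 15907 bp after the start site, at 15.4 (replicate 2) and 61.0 (replicate 3). CD24high listed neither gene.

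**Figure D3:**
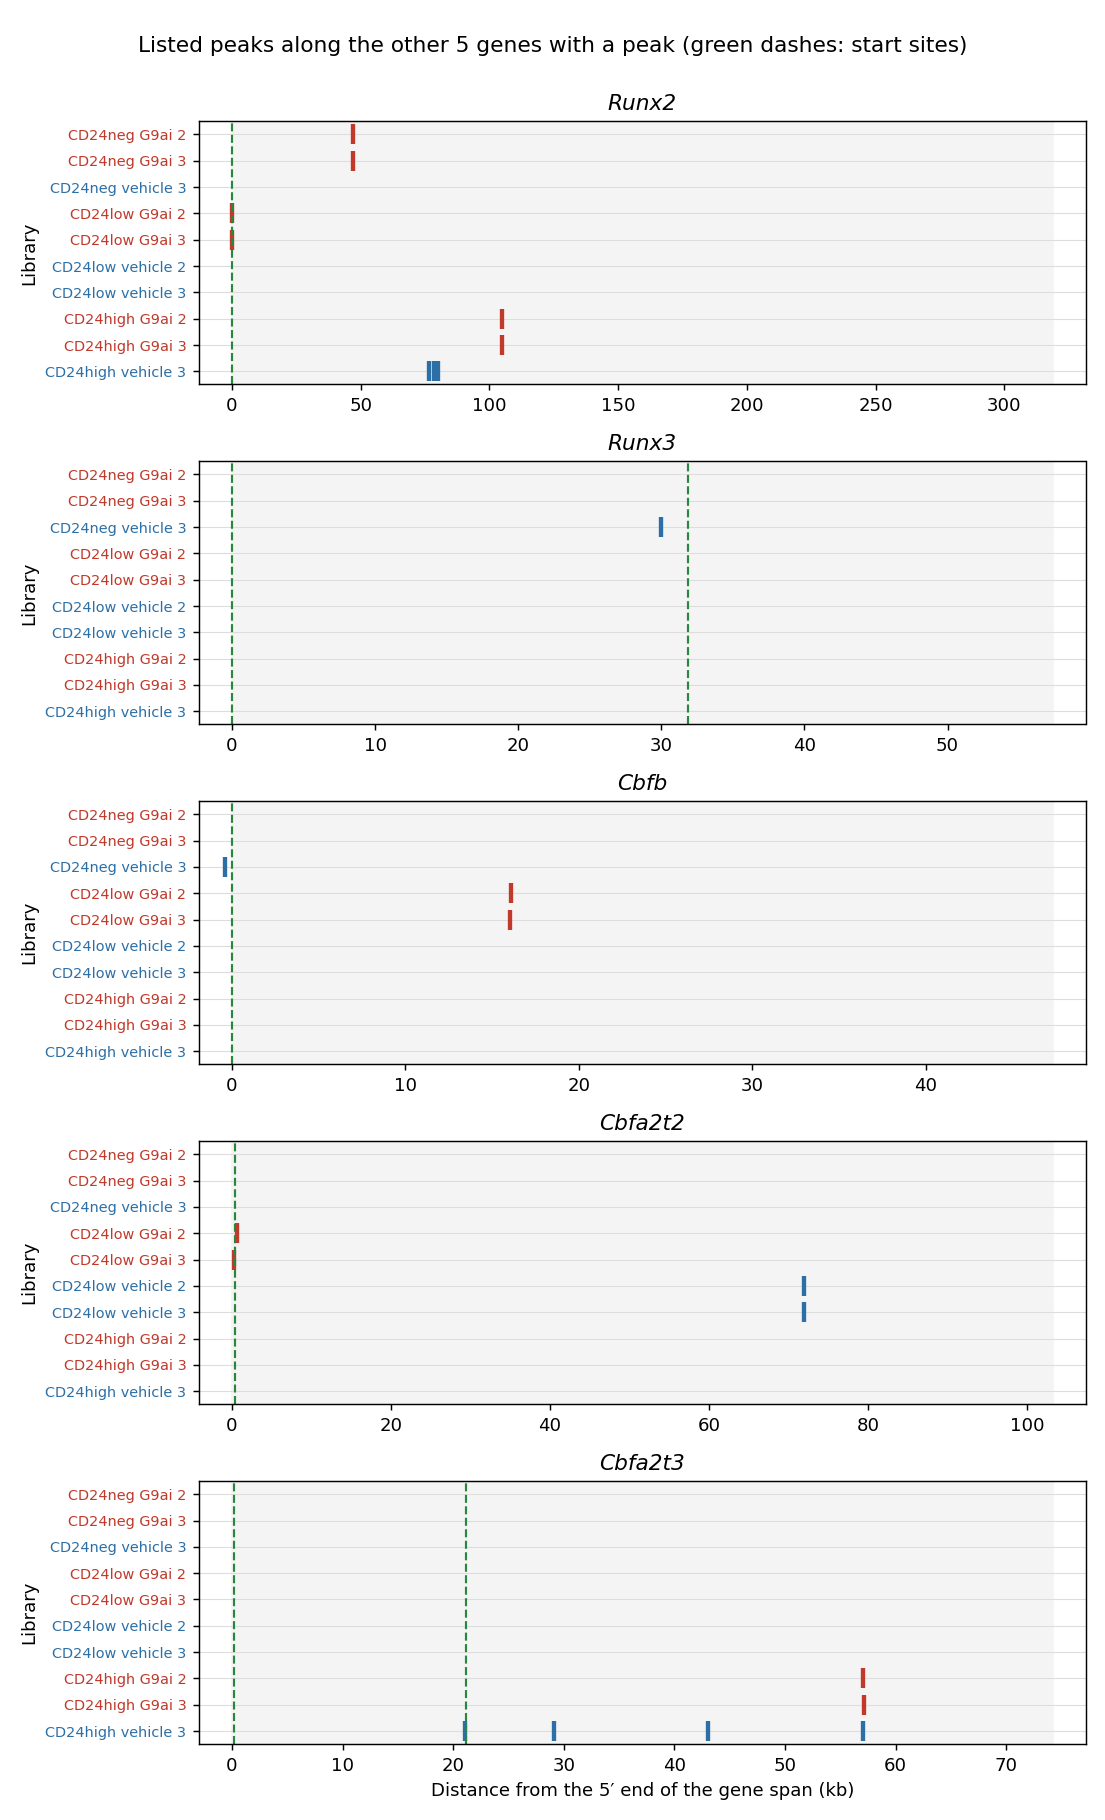
Listed peaks along Runx2, Runx3, Cbfb, Cbfa2t2 and Cbfa2t3 by library, against the distance in kb from the 5′ end of each gene span (red, G9ai; blue, vehicle; green dashes, RefSeq start sites; grey, span). In Runx2 the G9ai marks of the 3 populations stand at different places, and in Cbfa2t3 all marks belong to CD24high.

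Of the corepressor genes, Cbfa2t2 and Cbfa2t3 were each listed in 1 population and Runx1t1 in none. Cbfa2t2 (MTGR1, gene ID 12396, chr2:154436098-154539356, plus strand, 103.3 kb) was listed only in CD24low. Its start site lay under the peak of G9ai replicate 3, at 154436163 to 154436664, whose score of 606 was the highest of the 7361 peaks in that list. The peak of G9ai replicate 2 lay further into the gene, at 154436613 to 154436770, with a score of 58 at percentile 13.4. The peaks shared 52 bp, 32.9% of the shorter one. Only 1.12% of the CD24low G9ai-only regions had replicate peaks that shared so small a part. The strong peak over the Cbfa2t2 start site thus rests on 1 library. With the vehicle, both CD24low libraries had a peak within 154507986 to 154508254, 71502 bp after the start site, at percentiles of 62.6 and 38.2.

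Cbfa2t3 (MTG16 or ETO2, gene ID 12398, chr8:122625136-122699332, minus strand, 74.2 kb) was listed only in CD24high, with 4 peaks in the vehicle library and 1 in each G9ai library. A vehicle peak at 122678201 to 122678329, 26 bp before the proximal start site, ranked at percentile 25.1. The vehicle peaks at 122656113 to 122656403 and 122670084 to 122670277 ranked higher, at 87.4 and 83.1. The fourth vehicle peak, at 122642174 to 122642442 (percentile 66.7), overlapped the only G9ai peaks, at percentiles of 40.9 and 11.5. That site, listed in both arms of 1 population, is of a kind that makes up 0.478% of gene-linked sites. Runx1t1 (MTG8 or ETO, gene ID 12395, chr4:13742628-13895056, 152.4 kb) had no listed peak. The nearest in any list was 145.5 kb away, in CD24high vehicle, and 712.4 kb or more in the other 9 libraries.

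**Figure D4:**
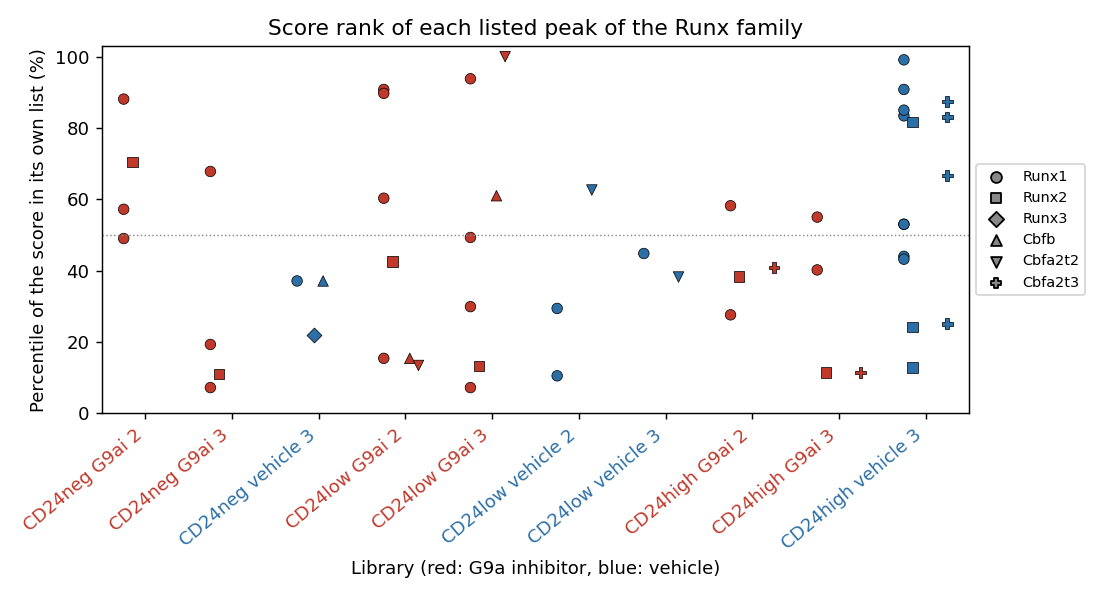
Percentile of the deposited score of each of the 53 peaks within its own list (y axis, 100 = highest) by library (red, G9ai; blue, vehicle; symbols, genes; dotted line, list median). Vehicle replicate 3 of CD24high has 10 of 15 peaks above its list median, and vehicle replicate 3 of CD24neg and of CD24low have none.

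Ranks varied widely between replicates of one arm. Of the 53 peaks, 23 scored above the median of their own list and 5 above its 90th percentile. For the 16 arm-only regions seen in 2 replicate libraries, the percentiles of the replicates differed by a median of 28.4 points, from 3.0 (Runx1, 92612560 to 92613212) to 86.6 (the Cbfa2t2 start site). In 15 of these 16 the replicate peaks shared at least 50% of the shorter one, beside 97.2% to 98.6% of regions over the 4 arms with replicates. Such a region had to hold a peak of both replicate libraries, so some agreement on place was a condition of entry. The ranks were not part of that rule and differed as given above. How the lists were subset is not stated, so the part of that choice in the agreement was not tested.

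**Figure D5:**
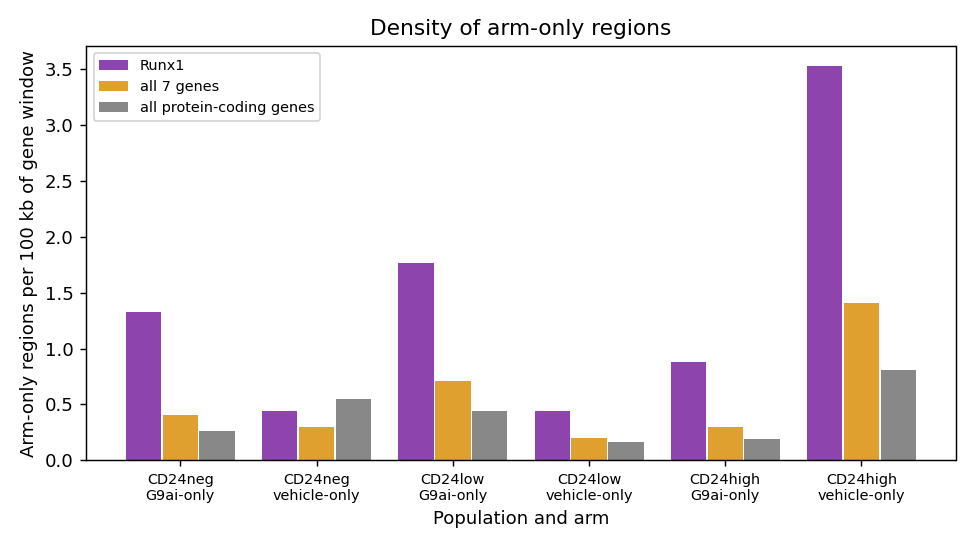
Arm-only regions per 100 kb of gene window (y axis, from 0) in each population and arm for Runx1 (purple), the 7 genes together (orange) and all protein-coding genes (grey). The bars for the 7 genes include Runx1 and stand above the grey ones in 5 of 6 sets, the exception being CD24neg vehicle.

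By density, the 7 genes together held 0.403 G9ai-only regions per 100 kb in CD24neg, 0.706 in CD24low and 0.302 in CD24high, where all genes held 0.259, 0.444 and 0.188. Vehicle-only regions came to 0.302, 0.202 and 1.41, against 0.551, 0.165 and 0.807. Runx1 supplied 9 of the 14 G9ai-only and 10 of the 19 vehicle-only regions of the family. The G9ai-only densities thus mostly describe Runx1, and they include the site that chose the family. Of the vehicle-only regions, Runx1 supplied 1 of 3 in CD24neg, 1 of 2 in CD24low and 8 of 14 in CD24high. With every list cut to its 2552 peaks of highest score, the order in CD24low turned from 7 G9ai-only and 2 vehicle-only regions of the family to 1 and 2. CD24neg then had 1 and 0 and CD24high 4 and 7.

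The genes whose counts over the 6 sets were closest to those of Runx1 were Notch2, Pakap, Zmiz1, Slc22a23 and Mgat5. The likeness was the sum of absolute differences in arm-only regions. Notch2, a Notch receptor gene, differed by 3 regions in all: it held 2 G9ai-only and 1 vehicle-only region in CD24neg, 3 and 1 in CD24low, and 1 and 8 in CD24high. Pakap differed by 4, and Zmiz1, Slc22a23 and Mgat5 by 5 each. Rbm47 also differed by 5 and came after them because its span length was further from that of Runx1. Their spans run from 136.8 to 462.5 kb, so all 5 are long genes, and the counts share the lengths of the lists.

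Known partners of Runx and ETO proteins held regions of both arms in every population. Of 47 cofactor genes, 12 held a G9ai-only region and 22 a vehicle-only region in CD24neg, 17 and 10 in CD24low, and 12 and 22 in CD24high. As shares of the list these are 25.5% and 46.8%, 36.2% and 21.3%, and 25.5% and 46.8%, to be set beside the shares of all genes and of genes in the members' length range given above. Their median span was 56.4 kb, where that of all genes was 17.2 kb, and 35 of the 47 held an arm-only region in some set (74.5%, where all genes had 43.7%). Zbtb16, a zinc finger repressor gene, held 2 and 5 regions in CD24neg, 2 and 1 in CD24low, and 1 and 2 in CD24high. Smad3, which carries TGF-beta signals and partners Runx factors, held 2 and 1, 3 and 1, and 1 and 1. Both genes had regions of both arms in all 3 populations. By the same rule (an arm-only region of 1 arm in at least 2 populations, of which 21 cofactors met it) came Ets1, Hipk2, Smad1, Wwtr1 and Hdac4, with 8 or 9 regions each.

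Genes that Runx factors are known to regulate had fewer regions than the cofactor genes, and their median span was shorter, 10.7 kb. An arm-only region in some set was held by 24 of the 46 (52.2%, where all genes had 43.7%). Of 46 target genes, 3 held a G9ai-only and 14 a vehicle-only region in CD24neg, 8 and 2 in CD24low, and 3 and 13 in CD24high. Set against the shares of all genes given above, the vehicle-only counts stood at 30.4%, 4.35% and 28.3% of the list, and the G9ai-only counts at 6.52%, 17.4% and 6.52%. G9ai-only regions in at least 2 populations were held by Socs3, a feedback inhibitor of cytokine signalling (1 in CD24neg and 2 in CD24high), and by Alpl, the alkaline phosphatase of mineralizing bone (1 in CD24low and 1 in CD24high). Each of the pair also held 1 vehicle-only region, Socs3 in CD24neg and Alpl in CD24high. Of the 10 targets that met the rule, the 8 with most regions (ties by alphabet) are named here. On the vehicle side these were Foxo1, Bcl2l11, Ihh, Myc, Ccn2 and Ccnd1. Of these, Foxo1 alone also held a G9ai-only region, 1 in CD24low. Myc held 2 vehicle-only regions in CD24neg and 1 in CD24high.

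Runx genes are active in leukocytes and endothelium, which the sort was designed to remove, so marker genes of these cells were set beside the members. Over all genes, the shares with a G9ai-only region were 10.6% in CD24neg, 15.9% in CD24low and 8.01% in CD24high, and with a vehicle-only region 18.9%, 7.44% and 25.0%. Of 25 leukocyte genes, 1 held a G9ai-only region in CD24neg (Rac2), 1 in CD24low (Spi1) and 2 in CD24high (Cd79a and Ikzf1), and 2, 1 and 0 held vehicle-only regions. Ptprc, which encodes CD45, had 1 region, with vehicle in CD24neg, the set in which Runx3 was listed. Of 20 endothelial genes, 2, 3 and 0 held G9ai-only regions and 6, 2 and 6 vehicle-only regions, or 30%, 10% and 30% of the list. Pecam1, which encodes CD31, held 4 G9ai-only regions in CD24low and 1 vehicle-only region each in CD24neg and CD24high. Vehicle-only regions of Vwf were listed in all 3 populations, and Vwf also held 2 G9ai-only regions in CD24neg. Of 16 mesenchymal genes, 0, 2 and 0 held G9ai-only and 2, 1 and 4 vehicle-only regions, and of 16 epithelial genes 5, 3 and 3 held G9ai-only and 4, 4 and 7 vehicle-only regions. Epcam and the genes of Sca-1 (Ly6a) and CD24 (Cd24a), on which the cells were sorted, had no listed region, and the lists do not show whether they were open in both arms. The part of other cell types in the Runx listings was not tested.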

How the data were processed

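The labels cite Corces and colleagues for the ATAC-seq protocol. FastQC, Bowtie2, MACS2 and the build mm10 are named in the submitters' processing notes; the sources used here give no versions, settings, read shifting or rule by which the lists were subset. Peak names show that the authors called peaks per library. The deposited score of each peak has no stated scale and was used only as a percentile within its list.

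Repeated lines (47 to 472 per list) were dropped. Peaks were merged at 1 bp of overlap within a population, labelled by arm and linked to RefSeq gene spans plus 1 kb (Python 3.11.15, pandas 2.3.3, numpy 2.4.6). Mitochondrial genes were left out. The steps were tested on simulated data. All 47 cofactor, 46 target and 82 marker entries matched the table. Named list genes are those with regions of 1 arm in at least 2 populations, at most 8 per list by region count; markers, at most 5 per list. A gene that the rule selects is not reported here. The members and lists were chosen with earlier results of these data known. Replicates 2 and 3 were taken from the titles; the design names separate mice. Peak names carry a prefix, of unstated meaning, common to same-numbered replicates of an arm across populations. No test was made, since the inhibitor contrast chose the members. Alternatives were other gene windows, overlaps, score thresholds and leaving out each replicate.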

Additional observations from a re-analysis of the deposited data

Results flagged for a closer look

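At 3 sites of Runx1 every library that listed the site in one population came from the opposite arm to that in another population. The site at chr16:92612560-92613212 was listed in both G9ai libraries of CD24low and in the vehicle library of CD24high, and the 3 peaks shared 221 bp. The site at chr16:92656800-92657200 had the same pattern, with 265 bp shared. The site at chr16:92676857-92676997 was listed in both G9ai libraries of CD24neg and in the vehicle library of CD24high, with 84 bp shared. The difference between populations was not tested. The vehicle side of CD24high is 1 library with the longest list, and 7.47% of all gene-linked sites have opposite arms in different populations.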

How the results depend on the processing

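Of 112 values recomputed, 83 stayed within 1.5 times of the reported count. That total includes the values with a replicate left out, none of which went beyond 1.5 times. The labelling rule nearly fixed that outcome, as given below. Beyond 1.5 times went 15 of 18 values with the higher-scoring 50% of each list. The same held for 6 of 6 around gene ends and 4 of 6 with lists cut to 2552 peaks. Counting only 1 kb around either gene end left G9ai-only regions at 0 in CD24neg, 2 in CD24low and 0 in CD24high, and vehicle-only regions at 1, 0 and 0, since most sites lie inside genes. The higher-scoring 50% of each list left 1, 1 and 0 G9ai-only regions of the 7 genes and 0 vehicle-only regions in both CD24neg and CD24low. With it, cofactor genes numbered 6 (G9ai) and 12 (vehicle) in CD24neg, 5 and 5 in CD24low, and 5 with G9ai in CD24high. Target genes numbered 1 and 8 in CD24neg, 4 and 1 in CD24low, and 8 with vehicle in CD24high. Cutting every list to 2552 peaks left 1 G9ai-only and 0 vehicle-only regions in CD24neg, 1 and 2 in CD24low, where the order of the arms turned, and 4 and 7 in CD24high. With the gene span alone, target genes fell to 1 (G9ai, CD24neg) and 8 (vehicle, CD24high); with 10 kb on each side they rose to 15 (G9ai) and 5 (vehicle) in CD24low. Requiring an overlap of 50%, accepting a peak in 1 library, or leaving out any replicate of a group with 2 kept every count of the 7 genes within 1.5 times. For the last 2 settings this was nearly fixed in advance. An arm-only region has a peak in every library of its arm, so these settings can add regions but hardly remove any. They do not measure stability. With 50% overlap between regions, the Runx1 site before the proximal start site stayed G9ai-only in all 3 populations. Leaving out a replicate could not change that, since all 6 G9ai libraries and no vehicle library listed the site. Its recurrence was not recomputed with the higher-scoring 50% of each list or with lists cut to 2552 peaks. No paired analysis was possible because the results come from no test. The single vehicle libraries of CD24neg and CD24high could not be left out. Read depth is unknown, so a missing peak sets no limit on accessibility.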
